A study of Danio rerio with 7 samples.

Results

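The NLR family genes described here are the zebrafish genes for proteins with a nucleotide-binding NACHT domain and leucine-rich repeats that are named nlrc, nlrp or nlrb. Members were taken as all rows of the count table whose gene name starts with one of these and whose counts sum to at least 30 over the 7 libraries. This gave 13 members among 32189 gene IDs, out of 18 IDs with such a name and out of 21291 IDs of any name with the same minimum sum. NLR proteins are sensors inside the cell that are known from innate immunity. In mammals the letter after NLR stands for the domain at the start of the protein, a CARD (C), a pyrin domain (P) or a BIR domain (B). Some of them assemble with the adaptor Pycard (ASC) and a caspase into an inflammasome, which matures interleukin 1 beta, and others restrain or redirect immune signalling. The family is expanded in fish, its copies are similar to each other, and copy number is known to differ between fish strains. NLR genes under other names, or without a symbol, were not counted as members, and 26350 of the 32189 IDs had a symbol. In what follows, the family means the 13 members.

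Transcripts were counted by bulk RNA-seq of dissected hindbrains at 24 hpf, each library being made from 1 embryo. The 4 Cnt libraries come from wild-type embryos (strain LondonAB). Those named Fgf20aHOM, 3 in number, carry mutant fgf20a on both chromosomes. This gene encodes a fibroblast growth factor made by neurons at segment centres. All embryos were grown at 28.5°C. The mutant embryos came from crosses between homozygous parents, so line and genotype cannot be told apart in this comparison. The columns of the mutant libraries are numbered 2 to 4 and are called F2, F3 and F4 here. Values of single libraries are listed in the order Cnt 1 to Cnt 4 for the wild type and F2 to F4 for the mutants.

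FGF20 was the symbol of 2 IDs, which left fgf20a and fgf20b undistinguished. Both IDs were present in mutants and wild type with overlapping levels, so they do not check the labels. The libraries held 52900433 to 69801072 counts. The sample labels name surrounding tissue besides the hindbrain. The 6 neural markers that could be matched by name (hoxa2b, hoxb1a, sox2, sox3, neurog1 and elavl3) had counts in all libraries, with summed normalised counts of 96690 to 145160 in Cnt and 129882 to 140184 in Fgf20aHOM. Most of this sum was sox3. sox2 had 3795 to 4533 in Cnt and 5287 to 6249 in Fgf20aHOM, and the neuronal gene elavl3 had 15928 to 23249 and 24805 to 36647. Both were higher in every mutant library, as were 9.34% of all IDs with the minimum sum. Means were lower in the mutants for hoxb1a (6761 in Cnt and 5895 in Fgf20aHOM) and neurog1 (5007 and 4168). Of the 6 markers, 4 had a log2 fold change above 0 and 2 below. An unadjusted p under 0.05 by edgeR was found for 2 of the 6, with 0 called, and for 15.6% of all genes tested. Epidermal genes were abundant and uneven, with 112777 to 1202590 summed normalised counts in Cnt and 190924 to 517479 in Fgf20aHOM over 6 markers. In bulk tissue, fewer cells of a type and less RNA per cell cannot be told apart. Normalised counts were scaled to a common library size with TMM factors. They are not corrected for gene length, so levels are compared between libraries and not between genes.

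One NLR gene, nlrc11, passed the test between the genotypes. It was almost absent from wild-type hindbrains and was present in all 3 mutant ones, whereas the most counted member, nlrc3l1, had overlapping levels. nlrc6 was higher on average in Fgf20aHOM but its groups overlapped, and the other members were low and uneven within each genotype. Of the 13 members, 9 passed the filter on low counts and were tested. A gene was called when its adjusted p did not exceed 0.01, it differed by 2-fold or more, and every library of 1 genotype was above 30 normalised counts. By edgeR 1 of 9 members was called higher in Fgf20aHOM and 0 were called lower. The called member was among the 9, and above the limit of 30, through its mutant counts alone. Its part of the 9 is therefore not read as an excess over all genes. Over all 19589 genes tested it called 86 (0.439%), with 45 higher (0.23%) and 41 lower (0.209%). Relaxing the adjusted p to 0.05 left the members at 1 and brought all genes to 1.49%. Without the filter, edgeR called 1 of the 13 members and 0.464% of 25221 IDs (0.21% higher and 0.254% lower). An unadjusted p under 0.05 was found for 2 of the 9 members, both higher, and for 15.6% of all genes. DESeq2, the tool of the study, also called nlrc11 alone among the members. It was run without that filter and called 2.51% of 25221 IDs (1.02% higher and 1.49% lower). Among the 9 members, 4 had a log2 fold change above 0 and 5 below, with a median of -0.13, and the median over all genes tested was -0.048.

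**Figure D1:**
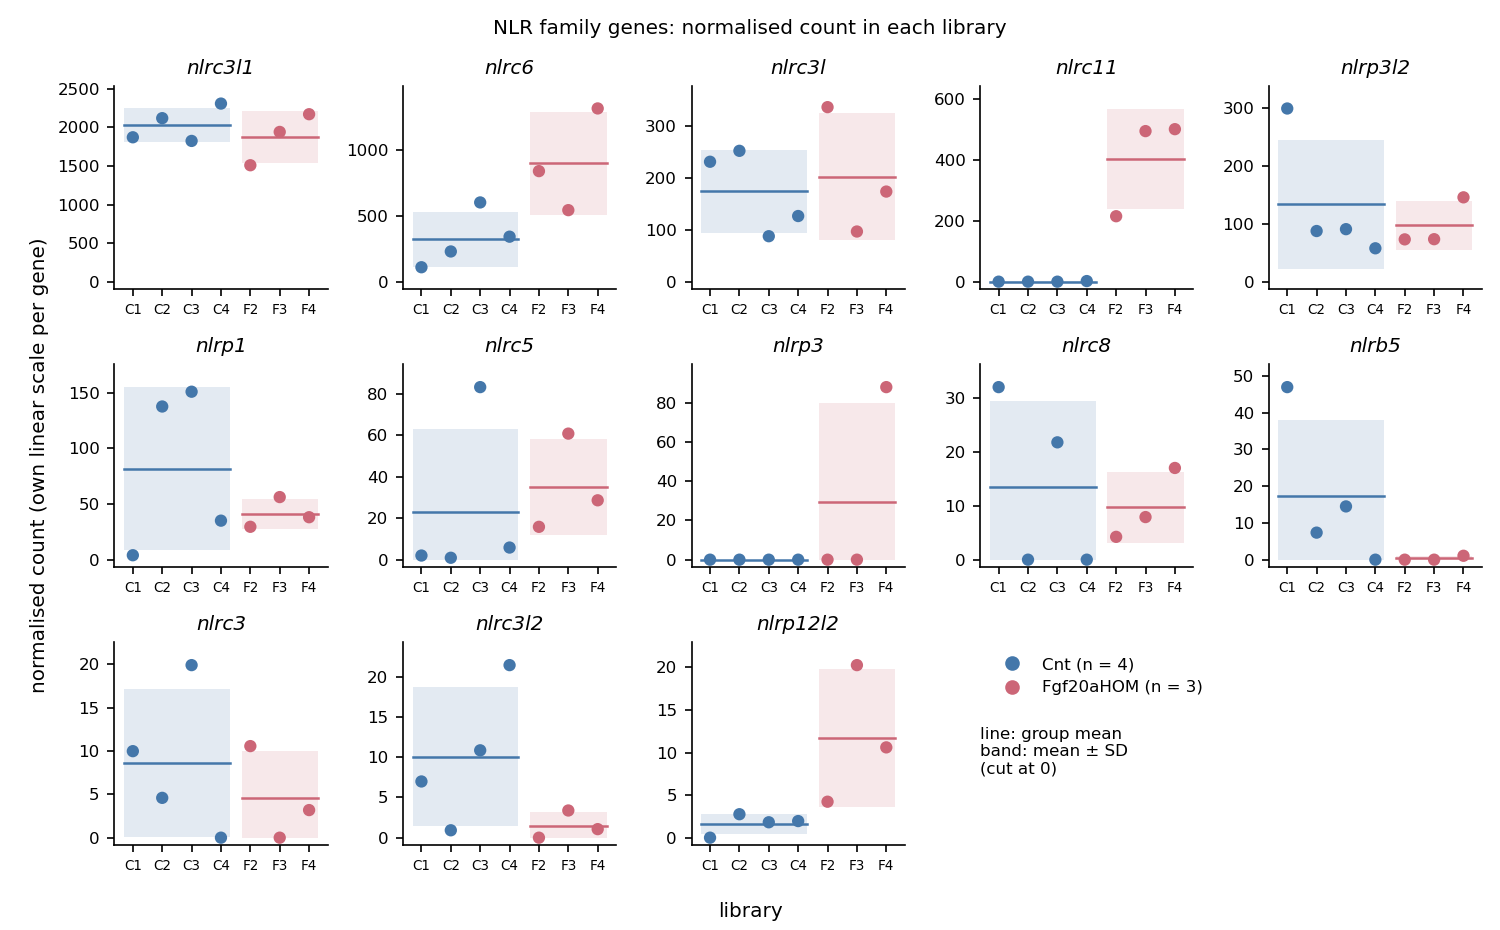
Normalised count (linear y axis, own scale for each gene) of the 13 NLR family members in the 4 Cnt libraries (blue, C1 to C4) and the 3 Fgf20aHOM libraries (red, F2 to F4). Each point is 1 library, lines are group means and bands are the mean ± SD. nlrc11 lay between 214 and 499.6 in Fgf20aHOM and at most at 1.95 in Cnt.

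nlrc11 (ENSDARG00000068621) is a zebrafish gene named for the CARD class of NLRs. It had 0 counts in Cnt 1, Cnt 2 and Cnt 3 and 2 counts in Cnt 4, against 203, 438 and 471 counts in the mutants. Every mutant library was thus far above every wild-type library, and F2 was the lowest of the mutants. Mean normalised counts were 0.487 ± 0.975 for the 4 wild-type and 402 ± 163 for the 3 mutant libraries (SD). The pooled counts, 1112 in Fgf20aHOM and 2 in Cnt, gave a ratio of 845 with an exact 95% interval of 233 to 6987. This interval treats reads as independent and leaves out the spread between embryos. nlrc11 reached the minimum sum, the filter on low counts and the limit of 30 normalised counts through its mutant counts alone. Its ratio, fold change, rank, adjusted p and call are therefore tied to the group where it is high.

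By edgeR, nlrc11 was higher by 9.38 ± 1.02 (SE) on the log2 scale, which ranked 4 among all genes tested, with an adjusted p of 0.00266. This fitted value depends on how the few counts in Cnt are handled. Its adjusted p was 6.5e-14 with DESeq2 and 0.00195 with 1 surrogate variable in the edgeR model. It missed the limit of 0.01 with limma-voom (0.0136) and without Cnt 3 (0.0114), F3 (0.0209) or F4 (0.0202) by edgeR, and the log2 fold change was at least 9.03 in all 13 alternatives. RSEM divides reads between similar genes, so part of the reads given to nlrc11 could come from a near-identical copy, which was not tested.

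The other members with zebrafish-specific numbers or letters, for which no role is given here, are nlrc6, nlrc8 and nlrb5. nlrc6 (ENSDARG00000091320) had normalised counts of 109.8, 229.6, 602.5 and 342 in the wild type and of 841, 544 and 1317 in the mutants. Only Cnt 3 reached into the mutant range, where it lay above F3. On average nlrc6 was at 321 ± 210 in the wild type (SD, n = 4) and at 901 ± 390 in the mutants (SD, n = 3). The difference of 1.46 ± 0.54 (SE) on the log2 scale had an unadjusted p of 0.0229 and an adjusted p of 0.233 by edgeR, so it did not pass the limit. Over the 13 alternatives it stayed between 1.05 and 1.98, with adjusted p from 0.0988 to 0.488. Without Cnt 3 the groups no longer overlapped, and the adjusted p was 0.122.

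nlrc8 (ENSDARG00000076819) had 32, 0, 24 and 0 counts in the wild type and 4, 7 and 16 in the mutants. The mutant libraries lay between the extremes of the wild type, and its log2 fold change of -0.48 ± 1.72 (SE) gave an edgeR adjusted p of 0.926. nlrb5 (ENSDARG00000090699) had 47, 8, 16 and 0 counts in the wild type and 0, 0 and 1 in the mutants. Because Cnt 4 was also at 0, the groups overlapped. It reached the minimum sum through its Cnt counts. Most of these were in Cnt 1, so no ratio is given here, and its open point in the figure of fold changes is not read as a result. nlrb5 did not pass the filter on low counts, and in the edgeR fit without a filter its adjusted p was 0.325.

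**Figure D2:**
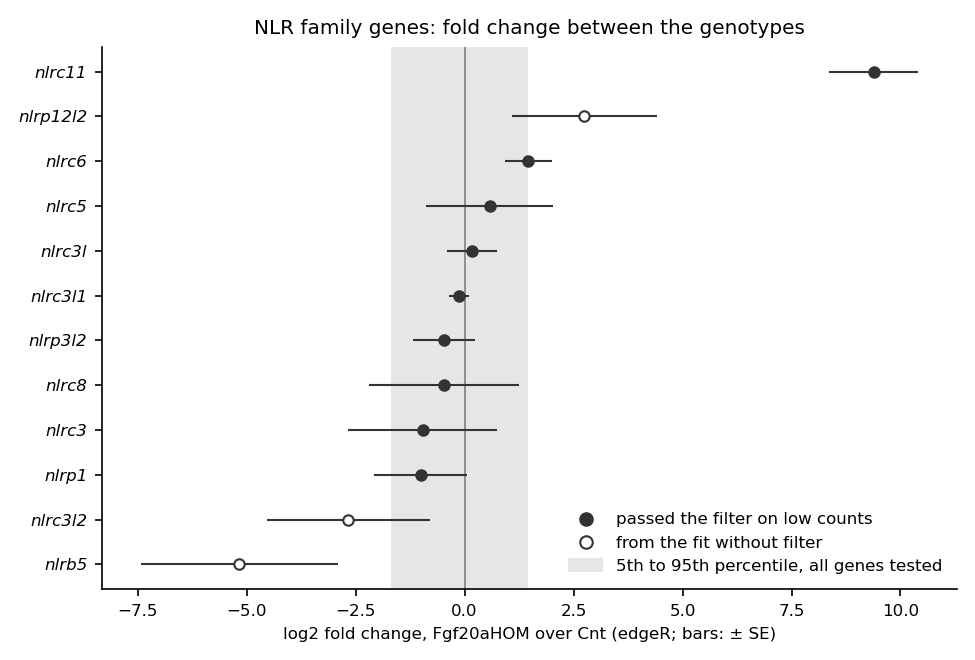
Log2 fold change of Fgf20aHOM over Cnt by edgeR (x axis, bars ± SE) for 12 NLR family members. Filled points are the 9 members that passed the filter on low counts, and open points come from the fit without a filter. The grey band is the 5th to 95th percentile of all genes tested (-1.70 to 1.46). Genes of the band passed the filter, so the open points, which rest on few counts, are not comparable with it. nlrc11 lies far to the right, and nlrp3, with 0 counts in all Cnt libraries, is not drawn.

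Members named after NLRC3 made up most of the family's counts. Mammalian NLRC3 is known to dampen immune signalling, and zebrafish nlrc3l is known to restrain macrophage activation and to be needed for microglia. nlrc3l1 (ENSDARG00000086553) had normalised counts of 1873, 2121, 1826 and 2310.1 in the wild type and of 1510.2, 1942 and 2172 in the mutants. F2 was the lowest library and Cnt 4 the highest, and the ranges overlapped. It was the steadiest member, with a coefficient of variation of 11.1% within Cnt and 17.9% within Fgf20aHOM. Its log2 fold change was -0.13 ± 0.24 (SE, edgeR adjusted p = 0.8289), and it was 0.03 without F2.

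nlrc3l (ENSDARG00000099936) had normalised counts of 231, 253, 87.8 and 127 in the wild type and of 337, 96.8 and 174 in the mutants. Both groups spanned nearly the same range, with the highest and the second lowest value of all in the mutants. The log2 fold change was 0.17 ± 0.57 (SE, edgeR adjusted p = 0.916) and its sign was not stable, as it was -0.22 with limma-voom and -0.073 with 1 surrogate variable. The member named NLRC3 in the names table (ENSDARG00000103146) had 10, 5, 22 and 0 counts in Cnt and 10, 0 and 3 in Fgf20aHOM, with an edgeR adjusted p of 0.827. nlrc3l2 (ENSDARG00000089304) had 7, 1, 12 and 22 counts in Cnt and 0, 3 and 1 in Fgf20aHOM. Its groups overlapped through the single count in Cnt 2. Like nlrb5, it reached the minimum sum through its Cnt counts, which favoured this direction. It did not pass the filter, and its adjusted p was 0.519 by edgeR without a filter.

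nlrc5 (ENSDARG00000024631) carries the name of a mammalian activator of MHC class I genes. Its normalised counts were 2.00, 0.919, 83.2 and 5.85 in the wild type and 15.8, 60.8 and 28.6 in the mutants. Cnt 3 stood above all other libraries, while the other 3 Cnt libraries lay below every mutant library. With all libraries the log2 fold change was 0.57 ± 1.46 (SE, edgeR adjusted p = 0.884), and without Cnt 3 it was 3.53 (adjusted p = 0.242). Leaving out F3 instead gave -0.045 (adjusted p = 0.995).

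Among the members named for the inflammasome class, nlrp1 and nlrp3 are known as inflammasome sensors. nlrp1 (ENSDARG00000088423) had normalised counts of 3.99, 138, 151 and 35.1 in the wild type and of 29.6, 56.3 and 38.2 in the mutants. The mutants lay inside the wild-type range, which spread from the lowest to the highest value of all. The log2 fold change was -1.01 ± 1.06 (SE, edgeR adjusted p = 0.692), and limma-voom gave 0.53. nlrp3 (ENSDARG00000078620) was seen in 1 library. It had 83 counts in F4 and 0 in the other 6 libraries, where a count of 0 allows up to 3 counts per library. No fold is given, because it would rest on F4 alone. nlrp3 did not pass the filter (adjusted p = 0.253 by edgeR without a filter). Among all IDs with the minimum sum, 0.348% had counts in a single library.

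nlrp3l2 (ENSDARG00000104672) had normalised counts of 298, 87.3, 90.5 and 57.5 in the wild type and of 72.9, 73.2 and 145 in the mutants. Cnt 1 stood apart from the other libraries. With all libraries its log2 fold change by edgeR was -0.47 ± 0.71 (SE, adjusted p = 0.789), which became 0.29 without Cnt 1 (adjusted p = 0.890). nlrp12l2 (ENSDARG00000098179) was low everywhere, with 0, 3, 2 and 2 counts in Cnt and 4, 18 and 10 in Fgf20aHOM. Its groups did not overlap, by 1 count between Cnt 2 and F2. It did not pass the filter, and edgeR without a filter gave an adjusted p of 0.466.

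Across the family, the groups did not overlap for 2 of 13 members, nlrc11 and nlrp12l2, both higher in Fgf20aHOM. Both reached the minimum sum through their mutant counts, so the choice of members favoured this direction for them. Of all 21291 IDs with the minimum sum, 16.8% did not overlap, 9.34% higher and 7.47% lower in the mutants. Without Cnt 3 the number of members was 4, with nlrc6 and nlrc5 added, and the share of all such IDs was 23.5%. Only nlrp3, which reached the minimum sum through F4 alone, had 0 counts in all libraries of 1 group. This was the case for 1.65% of all such IDs. Without Cnt 4, nlrc11 joined it.

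Members were unevenly detected among embryos of the same genotype. Of the 13 members, 7 had 0 counts in at least 1 library, against 20.1% of all IDs with the minimum sum. That share is not matched for abundance. Apart from nlrc11, whose zeros were all in Cnt, the members with a 0 had sums of only 39 to 83 counts. The median coefficient of variation was 87.7% within Cnt and 66.0% within Fgf20aHOM, against 40.0% and 31.3% over all such IDs. Low counts widen this measure, and several members had few counts. The number of members with at least 1 count was 10, 10, 11 and 9 in the wild type and 10, 10 and 13 in the mutants. F4 was the only library with all 13 members, and the numbers were the same after thinning all libraries to the smallest total.

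**Figure D3:**
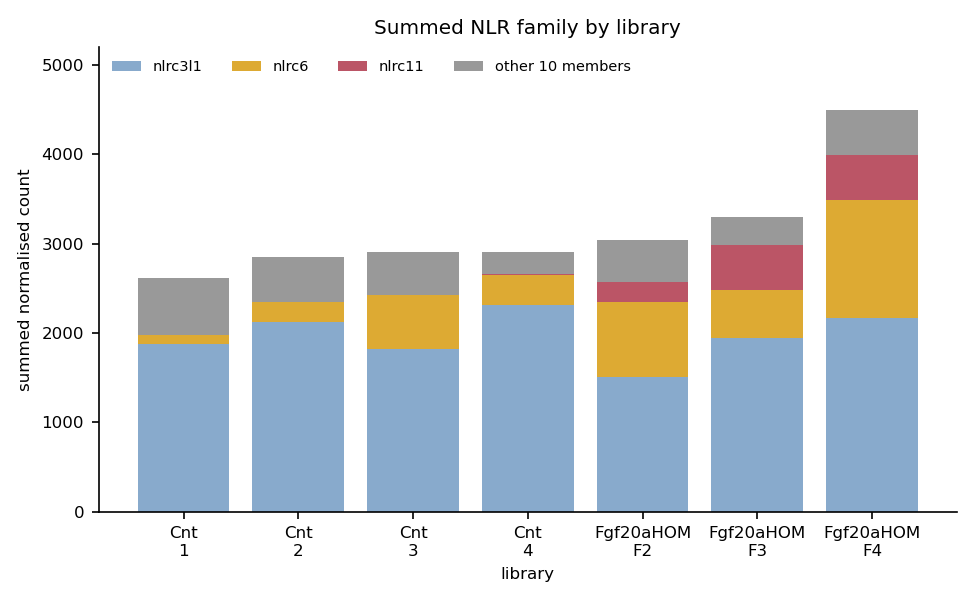
Summed normalised count of the 13 NLR family members (y axis) in each library (x axis), split into nlrc3l1, nlrc6, nlrc11 and the other 10 members. The 4 Cnt libraries reach 2614 to 2909 and the Fgf20aHOM libraries 3039, 3298 and 4496. nlrc11 takes a wider part of each Fgf20aHOM bar. nlrc6 does so on average only, as its part is wider in Cnt 3 than in F3.

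As a summed family, the members had normalised counts of 2614, 2845, 2909 and 2903 in the wild type and of 3039, 3298 and 4496 in the mutants. All mutant libraries were above all wild-type ones, and F4 was highest by far. The family averaged 2818 ± 139 in the wild type and 3611 ± 777 in the mutants (SD, n = 4 and 3), a ratio of 1.28. As CPM of the library total, with no TMM factor, the family had 42.7 to 50.6 in Cnt and 51.5 to 80.1 in Fgf20aHOM. With RLE size factors the groups overlapped, since F2 had 2908 where Cnt 3 and Cnt 4 had 2943 and 2971.

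This higher sum came from 2 members. Without nlrc11 the ratio was 1.14 and the groups overlapped, and without nlrc11 and nlrc6 it was 0.925, with 2307 to 2615 in Cnt and 1984 to 2679 in Fgf20aHOM. nlrc3l1 made up 72.1% ± 7.06 of the family in the wild type and 52.3% ± 5.75 in the mutants (SD, n = 4 and 3). Its shares did not overlap, but they are parts of a sum that includes nlrc11, which entered through its mutant counts alone. The normalised counts of nlrc3l1 itself overlapped. The share of nlrc6 was 11.2% ± 7.06 in Cnt and 24.5% ± 6.97 in Fgf20aHOM, while nlrc11 had 0.0168% ± 0.0336 and 11.0% ± 3.95 (SD, n = 4 and 3). The nlrc6 shares overlapped, with 20.7% in Cnt 3 and 16.5% in F3. Without nlrc3l1, the remaining 12 members summed to 785 ± 210 in the wild type and 1736 ± 516 in the mutants (SD, n = 4 and 3), a ratio of 2.21. These 12 still include nlrc6 and nlrc11, and nlrc11 reached the minimum sum through its mutant counts alone. These sums carry no test, since the family was chosen with its results known.

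NLR genes are known to be used by macrophages and other leukocytes, so leukocyte markers are given beside the family. Of 17 markers, 13 matched by name to 20 IDs, and their summed normalised counts were 259 to 3143 in Cnt and 727 to 2661 in Fgf20aHOM. The ranges overlapped, and edgeR called 0 of 14 tested IDs (0 with an unadjusted p under 0.05, and 0 by DESeq2). Of the 14 tested IDs, 9 had a log2 fold change above 0 and 5 below. Of these markers, ptprc, the pan-leukocyte gene CD45, had at most 0.905 normalised counts in Cnt and 5.63 to 38.2 in Fgf20aHOM. It was higher in every mutant library than in every wild-type one, as were 9.34% of all IDs with the minimum sum. ptprc reached that sum through its mutant counts, which favoured this direction. irf8 had 17.5 to 90.8 in Cnt and 21.1 to 41.7 in Fgf20aHOM, with means of 50.3 and 30.8. lyz had 57.9, 39.5, 545 and 28.3 in Cnt and 44.4, 92.3 and 178 in Fgf20aHOM. Its mean was 168 in Cnt and 105 in Fgf20aHOM, and the higher Cnt mean rests on Cnt 3. The pan-leukocyte gene lcp1 had 40.9 to 548 in Cnt and 39.4 to 859 in Fgf20aHOM, and marco was at 0 in all Cnt libraries and in F3 and F4. Of the 3 IDs with the symbol of the macrophage gene mpeg1, 1 was higher in every mutant library (0 to 27.1 in Cnt and 40.5 to 105 in Fgf20aHOM), 1 had 39.0 to 246 in Cnt and 0 to 57.3 in Fgf20aHOM, and the last was at 6.33 or less in all libraries. The part of leukocytes in the members' values was not tested.

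Among the remaining NLR genes and the genes that act with them, edgeR called no change and DESeq2 called 1. Of 70 names for NLRs, inflammasome parts, adaptors, kinases and NF-kappaB or interferon regulators, 58 were matched to 61 IDs and 49 of these were tested. edgeR called 0 of 49 with the limits of the study, against 0.439% of all genes. An unadjusted p under 0.05 by edgeR was found for 5 higher and 4 lower genes of the 49, and for 15.6% of all genes. The gene called by DESeq2 was lower, where DESeq2 called 2.51% of all genes. None had an edgeR adjusted p of 0.05 or less. The fold changes were above 0 for 17 and below 0 for 32 genes, with a median of -0.22. Over all genes tested, 9275 were above 0 and 10314 below, with a median of -0.048.

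The sensors nod1 and nod2 detect fragments of bacterial cell walls. nod2 had normalised counts of 291, 161, 279 and 23.4 in the wild type and of 84.5, 18.0 and 0 in the mutants. Only Cnt 4 fell into the mutant range, and the log2 fold change was -2.54 ± 1.33 (SE, edgeR adjusted p = 0.395). nod1 was at 60.9, 1.84, 98.6 and 0 in Cnt and at 33.8, 0 and 22.3 in Fgf20aHOM (edgeR adjusted p = 0.800). The mitochondrial member NLRX1 had normalised counts of 1721, 2472, 1774 and 2038 in Cnt and of 963, 1521 and 2385 in Fgf20aHOM, with overlapping ranges and an edgeR adjusted p of 0.695. ciita, the activator of MHC class II genes in mammals, had at most 33.8 normalised counts in any library and did not pass the filter.

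Of the inflammasome parts, the adaptor pycard had normalised counts of 681, 130.4, 275 and 1254 in the wild type and of 439, 249.98 and 183 in the mutants. The mutants lay within the wide wild-type range (log2 fold change -1.04 ± 0.69 (SE), edgeR adjusted p = 0.501). The caspase gene caspa was at 0 to 23.5 in Cnt and 22.5 to 65.5 in Fgf20aHOM (edgeR adjusted p = 0.602), and the cytokine gene il1b at 4.52 to 40.9 and 5.30 to 33.8 (edgeR adjusted p = 0.839). The gene that DESeq2 called, named here after its values were seen, was 1 of 2 IDs with the symbol txnip (ENSDARG00000070000), a thioredoxin inhibitor that binds NLRP3 in mammals. It had normalised counts of 574, 682, 468 and 327 in the wild type and of 205, 68.7 and 83.8 in the mutants, with no overlap. Its edgeR log2 fold change of -2.15 ± 0.49 (SE) came with an adjusted p of 0.0706, and DESeq2 gave 4.1e-04. The other txnip ID (ENSDARG00000036107) had 7753 to 18015 normalised counts in Cnt and 7422 to 10424 in Fgf20aHOM, with overlap. Its edgeR log2 fold change was -0.63 ± 0.28 (SE, adjusted p = 0.318).

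**Figure D4:**
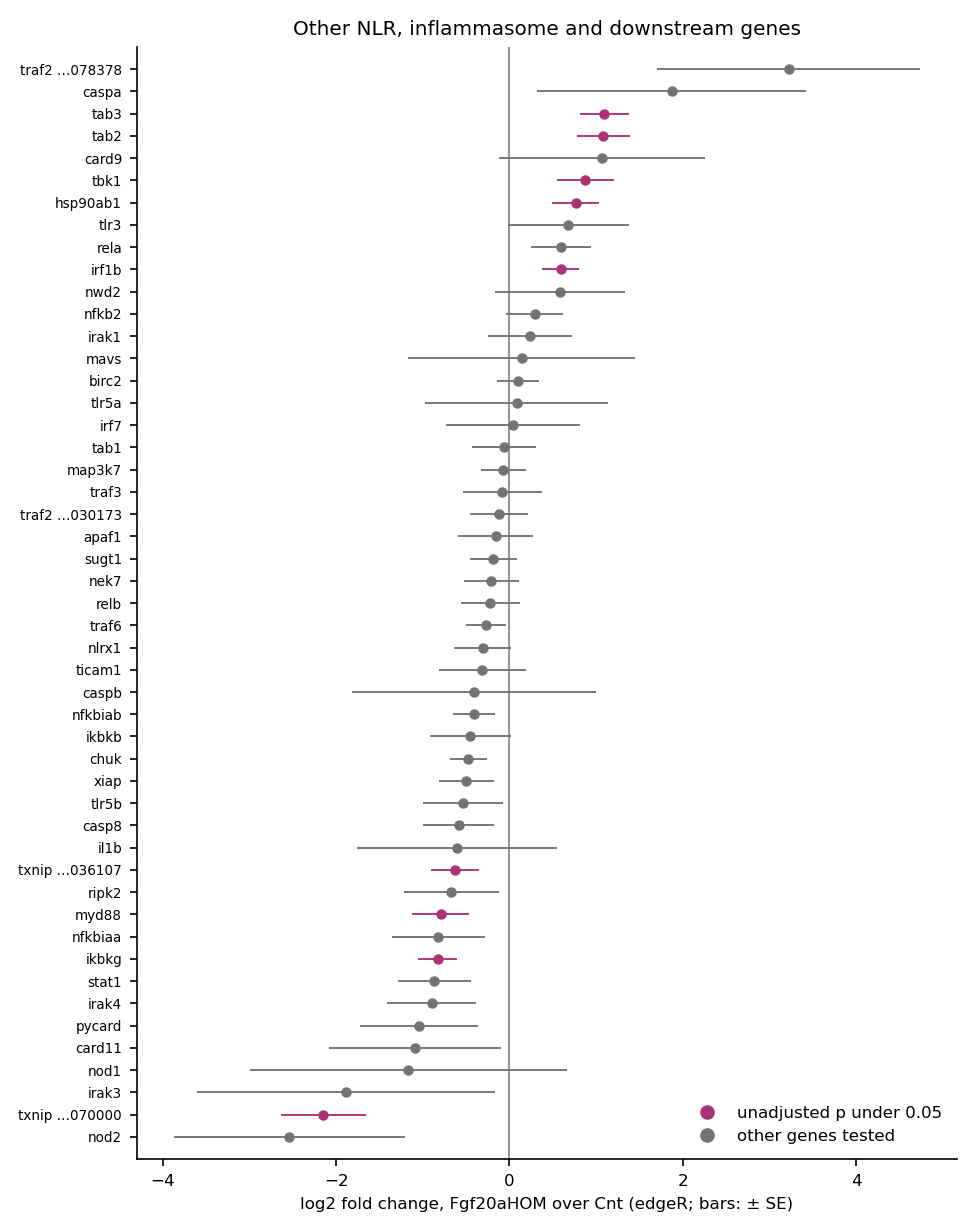
Log2 fold change of Fgf20aHOM over Cnt by edgeR (x axis, bars ± SE) for the 49 tested genes of the NLR and inflammasome list, sorted by fold change. Purple points have an unadjusted p under 0.05, and no gene passed the adjusted limit. A symbol shared by a pair of IDs carries the last digits of its ID, and nod2 and 1 txnip ID lie at the lower end.

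The same counts were made in other multigene families. Over all genes tested, edgeR called 0.439%. Of all IDs with the minimum sum, 16.8% did not overlap, 9.34% higher and 7.47% lower in the mutants. Of numbered zinc finger genes, 16 of 249 tested were called by edgeR (6.43%), 9 higher and 7 lower, and 33.3% of 255 did not overlap between the groups. Of the finTRIM genes, another fish-expanded immune family, 0 of 36 tested were called. Without overlap, 1 of 43 was higher and 5 lower (14.0% in either direction). Protocadherin genes had 0 of 55 called, and 7 of 57 were higher without overlap (12.3%). Whether the NLR family differs from these families was not tested.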

How the data were processed

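Libraries were made by the authors from total RNA of single hindbrains with NuGEN Ovation amplification and Nextera XT. They aligned reads with STAR 2.5.1b, run by RSEM 1.2.31, to GRCz10 with Ensembl release 89 transcripts. The deposited values are estimated counts per gene from RSEM, which the authors rounded to whole numbers and did not scale for depth. Use of strand and of molecular identifiers is not given in the sources used here. Reads amplified by PCR are not independent molecules, so the interval on pooled counts can be too narrow even for counting error.

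Members and lists were chosen with earlier results of these data known. Gene names came from a table of Ensembl IDs, which gave a symbol to 26350 of 32189 IDs. The 4 Cnt columns carried the title numbers. The 3 Fgf20aHOM columns were numbered differently from the titles and were assigned to the group only. There were 0 columns of other samples.

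Genes were tested on the whole table with edgeR 4.0.16 (quasi-likelihood F test, R 4.3.3), two-sided, with TMM, robust estimation, filterByExpr and genotype as the only term. Benjamini-Hochberg adjustment covered the 19589 genes that passed. The SE was taken as the size of the log2 fold change over the square root of F. Alternatives were DESeq2 1.42.0, limma-voom (limma 3.58.1) with quality weights, other size factors, no filter, 1 surrogate variable (sva 3.50.0), another minimum sum and leaving out each library. The scripts were tested on simulated data. The libraries were separate embryos per the study's methods. Members were named if called, at an adjusted p of at most 0.05, among the 10 most counted, or without overlap. nlrc3 and nlrc3l2 fell outside this rule and were named after their values were seen, so that every member is given. For related genes the rule named nod1, nod2, nlrx1, ciita, pycard, caspa, il1b and any gene past the limits. Protein and promoter sequences were not used here.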

Additional observations from a re-analysis of the deposited data

Results flagged for a closer look

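Among the 4 Cnt libraries, 14 values were examined for a library that stands apart (12 members with counts in Cnt, the summed family and the number of members detected). The measure was the distance of the extreme library from its nearest neighbour as a part of the whole spread, read against Dixon's 95% limit. For normally distributed values, chance alone gives about 1 in 20, or 0.7 of 14. The values here are mostly counts on a linear scale, several near 0, so this number may not hold for them. Past the limit were 3 values, from members that share the same libraries, and no excess over chance is claimed. nlrc11 had its only wild-type counts, 2, in Cnt 4, a gap of 1 in units of the spread. With 0 counts in the other 3 libraries this value is 1 for any count, and 2 counts lie within what a count of 0 allows, so it says nothing about Cnt 4, which leaves 2 of the 3. For nlrp3l2, Cnt 1 was at 298 normalised counts and the remaining wild-type libraries at 57.5 to 90.5, which gives 0.863. For nlrc5, Cnt 3 was at 83.2 and the others at 0.919 to 5.85, which gives 0.940.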

How the results depend on the processing

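No paired analysis was possible because it is not known which titled library each mutant column holds, and the embryos came from separate crosses. The single called member, nlrc11, was called under all alternatives except limma-voom, which called 0 members, and 3 of the 7 fits that left out a library, over which the count ranged from 0 to 1. The log2 ratio of the summed family was 0.36, and 1.14 without its most counted member. It ranged from 0.17 to 0.47 when 1 library was left out. It was -0.11 without nlrc11 and nlrc6, an alternative chosen after seeing the data. Members without overlap numbered 2, and 1 with a minimum sum of 100 counts, with a range of 2 to 4 of 13 when a library was left out, where 20.5% to 25.8% of all IDs with the minimum sum did not overlap. The count of members at 0 in a whole group was 1, then 0 with a minimum of 100 counts, and 1 to 2 with a library left out. DESeq2 called 1 of the related genes instead of 0. Of 111 fold changes of the 9 tested members under alternatives, 9 turned direction, none of them of a called member. With all libraries these were nlrc3l (-0.22 by limma-voom, -0.073 with 1 surrogate variable), nlrp1 (0.53 by limma-voom) and nlrc8 (0.36 by limma-voom). With a library left out, the range was -0.27 to 0.030 for nlrc3l1, -0.35 to 0.55 for nlrc3l, -0.91 to 0.29 for nlrp3l2 and -0.045 to 3.53 for nlrc5. The cause was not tested. The 4 members that did not pass the filter had adjusted p of 0.253 to 0.519 by edgeR without it.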

Other observations

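A further 5 IDs with NLR names stayed under the minimum of 30 counts. nlrp15 had 0 counts in all Cnt libraries and 3, 1 and 10 in the mutants. nlrp12l had 2 counts in Cnt 1 and 13 in F2, nlrc7 had 12 in Cnt 2, 3 in Cnt 3 and 5 in F4, nlrc9 had 4 in Cnt 3, and nlrc10 had 1 in F2, with 0 in the libraries not named.

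Genes that neighbour members were looked up in the gene order of RefSeq assembly GRCz12tu, another build than that of the counts, where 10 of 13 members matched by symbol. Up to 3 genes on each side gave 43 neighbours with an ID in the count table. Of 31 tested by edgeR, 13 had a log2 fold change above 0 and 18 below. By edgeR 0 were called and 7 had an unadjusted p under 0.05, while DESeq2 called 2. Over all genes, 15.6% had an unadjusted p under 0.05 by edgeR and 2.51% were called by DESeq2. Of the 35 with the minimum sum, 2 were higher and 3 lower without overlap, against 16.8% of all such IDs without overlap in either direction. The 4 genes given next were chosen after their values were seen, for differing between the groups. The protein-coding gene next to nlrc11 on 1 side, si:ch211-181d7.2, had 0 counts in all Cnt libraries and in F2, and 182 and 38 counts in F3 and F4. Of the genes near nlrc6, pi4k2a, a lipid kinase gene, had 377, 689, 546 and 494 counts in the wild type and 1685, 900 and 1192 in the mutants. Its log2 fold change was 1.41 with an edgeR adjusted p of 0.0495, above the limit of 0.01. Near nlrp3, trim35-1 had 213, 244, 233 and 252 counts in the wild type and 4, 0 and 24 in the mutants. The groups of trim35-1 were far apart, yet its edgeR adjusted p was 0.0967. Near nlrc8, si:dkey-121n8.7 had 59, 62, 0 and 65 counts in the wild type and 0 in all 3 Fgf20aHOM libraries (edgeR adjusted p = 0.159).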
